A study of Mus musculus with 6 samples.

Results

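The proteasome is the protease that degrades ubiquitin-tagged proteins, and the genes examined were those of its subunits and assembly factors in mouse heart. Members were all genes whose symbol in the array annotation begins with Psma, Psmb, Psmc, Psmd, Psme, Psmf or Psmg followed by a digit. This gave 49 of 18193 named genes. They comprised 19 core genes (Psma and Psmb), 21 cap genes (Psmc and Psmd) and 9 activator or assembly genes (Psme, Psmf and Psmg). Each gene was represented by the probe set, among those with a single gene symbol, that had the highest mean log2 signal over all arrays. The rule used gene names and brightness only, and no difference between groups. It also takes in Psmc3ip and Psme3ip1, which share the name stem because their products were named as binding partners and which are no subunits.

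The samples were hearts of male C57BL/6J mice on 6 Affymetrix arrays, 2 in each of 3 groups. The first group carried a transgene for fatty acid synthase (FASN), the enzyme that makes long-chain fatty acids, and came from a line with high cardiac FASN. The second came from a transgenic line with low cardiac FASN, and the third from age-matched B6 controls. The transgene of both lines was driven by the alpha-MHC promoter, which is specific to the myocardium, and each expression level was represented by a single line, so transgene level and any other difference between the lines cannot be told apart. The tissue label calls all 6 hearts transgenic, controls included, and the groups were therefore taken from the titles. Whether the 2 arrays of a group stem from different animals is not stated, so the p-values reflect only array-to-array spread, which may be technical.

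The core of the proteasome is a barrel of stacked rings. Alpha subunits form the outer rings and gate the entry, and beta subunits form the inner rings, of which Psmb5, Psmb6 and Psmb7 carry the peptidase sites. The cap binds the barrel, recognises ubiquitin chains, removes them and unfolds the substrate with a ring of ATPases. In heart muscle this system turns over sarcomeric and damaged proteins, and its subunit genes are known to be driven together by the transcription factor encoded by Nfe2l1.

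Fasn signal followed the labels. In arbitrary signal units it was 2268 and 2104 in high-line hearts, 462 and 481 in low-line hearts, and 213 and 187 in control. On the log2(signal + 16) scale used for all tests, Fasn was 3.35 ± 0.09 (SE) higher in the high line and 1.17 ± 0.09 higher in the low line than in control. The 8 heart muscle markers were bright in every group. Arrays of 1 group correlated at 0.987 to 0.990 over tested probe sets and arrays of different groups at 0.969 to 0.977. Tests were made for the 22519 probe sets at or above the median brightness, of which 47 represented members. Psma8, a testis alpha subunit, and Psmb11, a thymus beta subunit, were too dim to be tested. Psma8 signal was 26.9 and 35.3 in high-line hearts, 12.8 and 39.6 in low-line hearts, and 40.9 and 35.2 in control, and Psmb11 signal was 30.7 and 39.9, 2.56 and 30.2, and 22.9 and 7.80. Neither separated both lines from control.

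Promoter sequences (RefSeq, GRCm38.p6) were searched for 41 of the 49 genes, as 44 start sites. Promoters on a chromosome left out of the search were not counted. The 250 bases before each start were searched on both strands for 11 motifs. They were compared with the 32851 promoters of all genes on the chromosomes searched. The core of the antioxidant response element, TGACNNNGC, to which the Nfe2l1 product and its relative Nfe2l2 bind, was present in 5 of the 44 member promoters (11.4%) and in 10.2% of all promoters. The ETS motif CCGGAAGT was present in 6 member promoters (13.6%), those of Psmc1, Psmd6, Psmd12, Psme4 and both starts of Psmc2, and in 2.88% of all promoters. A CCAAT box was found in 36.4% of member promoters and 33.8% of all. The core of the interferon-stimulated response element was found in 6.82% and 2.98%. These matches are letters in a window and were not tested as binding sites. The antioxidant core lay in the promoters of Psmb5, Psmb6, Psmc6, Psmd9 and Psmd12. The sequences of 5 genes whose signals are described next are shown 5′ to 3′ on the strand of the gene, with a match to the antioxidant core or the ETS motif on either strand in capitals. They are chr14:54617996-54618245 on the minus strand for Psmb5, chr5:21785025-21785274 and chr5:21786497-21786746 on the plus strand for the pair of Psmc2 starts, and chr14:14120946-14121195 on the minus strand for Psmd6. Psma5 at chr3:108256676-108256925 and Psmd2 at chr16:20651402-20651651, both on the plus strand, are genes that were higher in the low line and whose windows hold neither motif. The 5 genes are picked examples, and a motif did not go with direction throughout. The windows of Psma6, Psmd11 and Psme3, also lower in the low line, hold neither motif. Those of Psmb6, Psmc6, Psmd9 and Psme4 hold a match, and these genes were not called there.
Psmb5: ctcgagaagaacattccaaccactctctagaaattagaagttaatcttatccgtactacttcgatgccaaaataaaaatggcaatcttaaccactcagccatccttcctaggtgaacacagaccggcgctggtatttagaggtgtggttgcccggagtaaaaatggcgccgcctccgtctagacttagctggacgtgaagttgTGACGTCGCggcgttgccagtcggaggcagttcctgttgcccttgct
Psmc2 (first start): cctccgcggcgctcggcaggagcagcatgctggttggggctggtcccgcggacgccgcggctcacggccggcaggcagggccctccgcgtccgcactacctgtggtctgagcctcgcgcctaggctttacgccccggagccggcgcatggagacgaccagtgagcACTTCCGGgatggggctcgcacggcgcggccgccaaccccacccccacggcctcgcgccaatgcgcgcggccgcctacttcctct
Psmc2 (second start): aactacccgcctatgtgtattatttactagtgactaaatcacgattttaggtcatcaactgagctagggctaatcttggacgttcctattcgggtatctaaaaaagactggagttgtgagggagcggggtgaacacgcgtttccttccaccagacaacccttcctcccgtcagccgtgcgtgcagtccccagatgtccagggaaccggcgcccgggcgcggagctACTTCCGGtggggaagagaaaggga
Psmd6: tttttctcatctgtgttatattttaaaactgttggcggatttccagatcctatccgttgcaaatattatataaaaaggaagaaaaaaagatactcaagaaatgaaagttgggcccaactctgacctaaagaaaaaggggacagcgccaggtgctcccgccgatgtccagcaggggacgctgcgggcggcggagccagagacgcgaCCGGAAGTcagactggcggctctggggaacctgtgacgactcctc
Psma5: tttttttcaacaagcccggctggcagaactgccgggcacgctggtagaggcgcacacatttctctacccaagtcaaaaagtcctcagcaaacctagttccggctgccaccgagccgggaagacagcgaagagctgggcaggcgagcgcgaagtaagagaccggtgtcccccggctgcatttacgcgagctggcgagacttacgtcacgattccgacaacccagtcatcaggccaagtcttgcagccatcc
Psmd2: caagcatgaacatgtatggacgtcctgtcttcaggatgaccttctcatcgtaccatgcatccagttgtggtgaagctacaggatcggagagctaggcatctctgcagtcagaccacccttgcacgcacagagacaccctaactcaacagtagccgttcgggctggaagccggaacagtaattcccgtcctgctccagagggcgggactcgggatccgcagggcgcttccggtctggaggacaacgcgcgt

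The low line showed the broader change in proteasome genes, and mostly downward. Against control, 17 of the 47 tested members were lower (36.2%) and 5 were higher (10.6%) at an adjusted p below 0.05, whereas 10.8% of all 22519 tested probe sets were lower and 13.5% higher. In the high line 7 members were lower (14.9%) and 3 higher (6.38%), with 6.18% of all tested probe sets lower and 8.18% higher. In either direction, 24.3% of all tested probe sets were called in the low and 14.4% in the high line. Proteasome genes are bright, and bright probe sets are called more often. Among the 4242 tested probe sets between the lower and upper quartile of the members' brightness, 22.3% were lower and 20.7% higher in the low line, and 14.5% were lower and 12.8% higher in the high line. The share of all tested members lower in the high line was thus close to that of the probe sets in this band. The share lower in the low line was above it. The band does not match every member. Of those lower in the low line, Psma6, Psmd6, Psmc2, Psmd11, Psmc3 and Psme1 were brighter than the band. Psmd13 and Psme3 were dimmer. With 1 array left out, the number of members lower in the low line was lowest without a low-line array, far below 17. That share therefore depends on the arrays included. Both comparisons use the same control arrays. In the low line 23 of 47 members had both arrays below both control arrays, as did 30.3% of all tested probe sets, and 12 had both above, beside 34.7%. For the high line the counts were 18 below, beside 23.9%, and 14 above, beside 32.2%.

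Cap genes made up 11 of the 17 falls in the low line. Of 21 cap genes, 11 were lower (52.4%) and 2 higher, with a median log2 difference of -0.19, beside 0.02 over all tested probe sets and -0.02 over the equally bright ones. This class, set by name, includes Psmc3ip, which is no subunit, and the assembly chaperones Psmd5, Psmd9 and Psmd10. None of these was called in the low line. Of 17 tested core genes, 4 were lower and 2 higher, with a median of -0.03. Of 9 activator or assembly genes, 2 were lower and 1 higher, with a median of -0.09. With the second brightest (or only) probe set the cap median was -0.0462 and the core median 0.0490, and with the mean of a gene's probe sets they were -0.11 and 0.0287. All these differences were small: the called falls ranged from 0.17 (Psmb3) to 0.55 (Psme3) on the log2 scale. In whole heart RNA, fewer cells of a type and less RNA per cell cannot be told apart. The count of 11 lower cap genes was 3 and 5 when a low-line array was left out and 5 and 4 when a control array was left out. It was 6 with the second brightest (or only) probe set of each gene, 5 with the mean of a gene's probe sets, 8 after quantile normalization and 3 when the variance was modelled without its dependence on brightness.

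**Figure D1:**
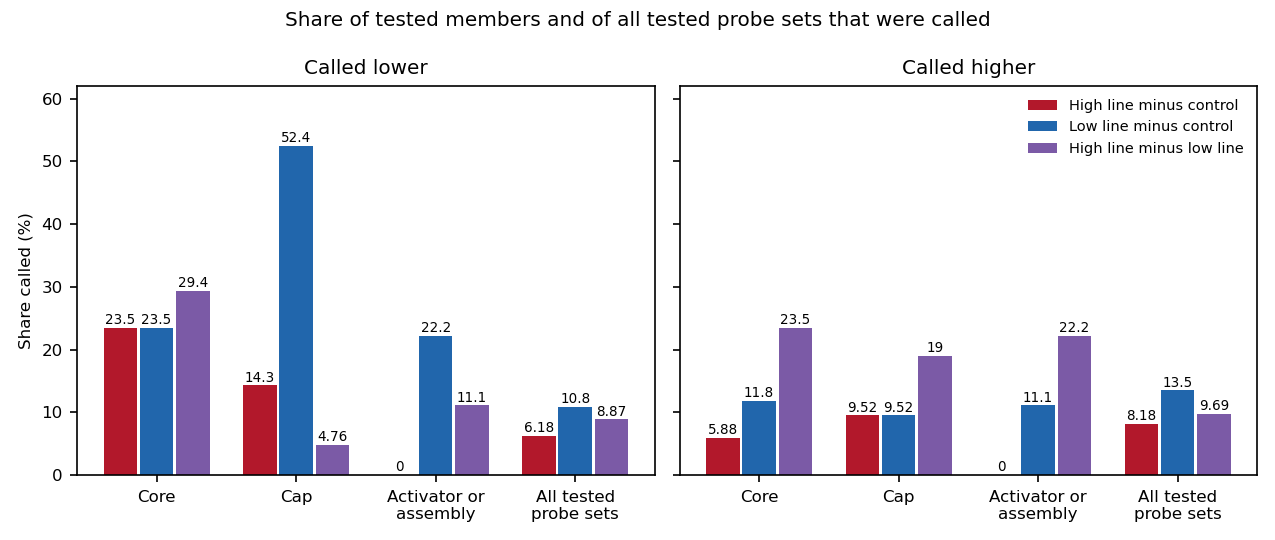
Share of tested members called lower (left) and higher (right), in percent, for core, cap and activator or assembly genes and for all tested probe sets, with 1 bar per comparison. Of the cap genes, 52.4% were lower in the low line, beside 10.8% of all tested probe sets. The share was 22.3% among probe sets between the members' brightness quartiles, which are not drawn. The cap share depended on the arrays included.

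The members of each class were also added up. The summed signal of the cap genes was 48963 and 49901 in the low line, 51255 and 51649 in the high line, and 55912 and 55997 in control, so both lines lay below control without overlap. The core genes summed to 57877 and 58464 in the low line, 57189 and 59221 in the high line, and 60426 and 62355 in control. Here the lines overlapped each other and both lay below control. Activator and assembly genes summed to 15669 to 15876, 15898 to 16391 and 16126 to 16307, with the high line overlapping control. Such a sum is weighted by the brightest genes and carries no test. In the high line the median log2 differences per gene were -0.02 (core) and -0.03 (cap), beside 0.04 over all tested probe sets. Of single tested probe sets, 23.9% had both high-line arrays and 30.3% both low-line arrays below both control arrays.

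Markers of other cell types moved with the groups. Of 8 heart muscle markers, 2 were lower and none higher in the low line, where Actn2 was 0.38 and Tnnt2 0.32 lower on the log2 scale, and 4 were higher and none lower in the high line. Their summed signal was 154752 to 157190 in the low line, 186758 to 209418 in the high line and 164875 to 173103 in control. Of 6 fibroblast markers, 5 were higher in the low line and 4 in the high line (sums 33577 to 34881, 33603 to 33901 and 27473 to 28205 in low line, high line and control). Of 4 tested lymphocyte markers, all 4 were higher in the low line and 2 in the high line (sums over all 8 listed 2949.7 to 2992, 973 to 1026 and 511 to 553), led by the immunoglobulin genes Ighm and Jchain, while Cd79a, Cd79b, Cd3e and Cd4 were too dim to be tested. Macrophage markers (7 tested) had 2 higher and 1 lower in the low line and 2 lower in the high line (sums 13972 to 14385, 11408 to 11499 and 12311 to 12440.1). Endothelial markers (6 tested) had 3 higher and 1 lower in the low line and 3 higher in the high line (sums 6985 to 6987, 6654 to 6945 and 5654 to 5800.2). The 3 tested adipocyte markers were higher in both lines (sums with Lep, too dim to be tested, 1945 to 2055, 3622 to 3896 and 173 to 235). Of 5 airway markers, 4 were higher in high-line hearts and 1 in low-line hearts (sums 218 to 254, 3010.4 to 3206 and 139 to 186). Over all tested probe sets 13.5% were higher and 10.8% lower in the low line, and 8.18% and 6.18% in the high line. The part of these marker shifts in the proteasome differences was not tested.

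Among the catalytic beta subunits, Psmb5, which carries the chymotrypsin-like site, was lower in the low line and near control in the high line. Its signal was 2928 and 2925 in the low line, 4087 and 3795 in the high line, and 4143 and 3874 in control. The low-line arrays lay below all 4 others, which overlapped. The difference from control was -0.45 ± 0.06 (log2, SE; 1.37-fold lower, adjusted p = 0.000653), and the high line exceeded the low line by 0.43 ± 0.06 (adjusted p = 0.00156). Psmb6, the caspase-like subunit, gave 3403 and 3855 in the low line, 3729 and 3594 in the high line, and 3484 and 3220 in control, and no comparison was called. Psmb7, the trypsin-like subunit, gave 877 and 907, 752 and 784, and 878 and 1011 in the same order. It was lower in the high line than in control (-0.29 ± 0.08, adjusted p = 0.0494), and the low line overlapped control. That difference ranged from -0.39 to -0.19 with 1 array left out and was called in 1 of these 6 fits.

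The non-catalytic beta subunits were also divided. Psmb1 and Psmb4 were lower in the high line than in control (-0.23 and -0.27) and lower than in the low line (-0.23 and -0.24). The second probe set of Psmb4 showed neither fall (0.06 and -0.01). That of Psmb1 was lower in both comparisons (-0.35 and -0.27) but not called. Psmb2 was higher in the low line than in control by 0.36 ± 0.06 (adjusted p = 0.00245), with 2703 and 2796 beside 2178 and 2110.1, and the high line lay at 2361 and 2201. Psmb3 was lower in the low line (-0.17 ± 0.05, adjusted p = 0.0325), but its second probe set was called in the opposite direction, at 0.23. Of the 7 standard beta subunits, 2 were lower and 1 higher in the low line, and 3 were lower in the high line. The shares over all tested probe sets were 10.8%, 13.5% and 6.18% in that order.

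The inducible beta subunits replace the catalytic ones in the immunoproteasome, the form that interferon induces and that immune cells carry. In the low line 0 of the 3 were called by limma (0 also at an unadjusted p below 0.05). Lymphocyte markers were higher there, and a link between these values was not tested. Psmb8, which replaces Psmb5, gave 476 and 444 in high-line hearts, 378 and 324 in low-line hearts, and 410 and 391 in control. The groups did not overlap, and the high line exceeded the low line by 0.38 ± 0.11 (adjusted p = 0.04). Psmb10, which replaces Psmb7, gave 1024 and 914, 865 and 879.8, and 783 and 759.9 in the same order. Both lines lay above control, and the difference was called for the high line (0.32 ± 0.08, adjusted p = 0.0254) but not for the low line (0.17 ± 0.08, adjusted p = 0.143). With 1 array left out, the high-line difference of Psmb10 ranged from 0.24 to 0.40, so its size depended on the arrays included. The difference between the lines was not called for Psmb10 (0.15 ± 0.08, adjusted p = 0.236). Psmb9, which replaces Psmb6, gave 256 and 316, 222 and 243, and 233 and 222, and was not called. In the high line all 3 inducible genes had both arrays above both control arrays, as did 32.2% of all tested probe sets.

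The alpha ring showed opposite shifts within the low line. Psma6 gave 5969.8 and 6599 in the low line, 7761 and 6843 in the high line, and 8684 and 8291 in control, with no overlap between any pair of groups. The low-line difference from control was -0.43 ± 0.07 (adjusted p = 0.00227), and the high-line difference of -0.22 ± 0.07 was not called (adjusted p = 0.074). Psma7, a further alpha subunit, was also lower in the low line (-0.22 ± 0.05, adjusted p = 0.0133). Psma5, in contrast, gave 5770 and 5592 in the low line, 4359 and 4494 in the high line, and 4528 and 4587 in control. The low line stood above both other groups, by 0.32 ± 0.05 against control (adjusted p = 0.00174) and with the high line 0.36 below it (adjusted p = 0.00152). Psma1 was lower in the high line than in control (-0.25) and than in the low line (-0.22). Of the 7 tested alpha genes, 2 were lower and 1 higher in the low line, and 1 was lower in the high line. The shares over all tested probe sets were 10.8%, 13.5% and 6.18% in that order.

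**Figure D2:**
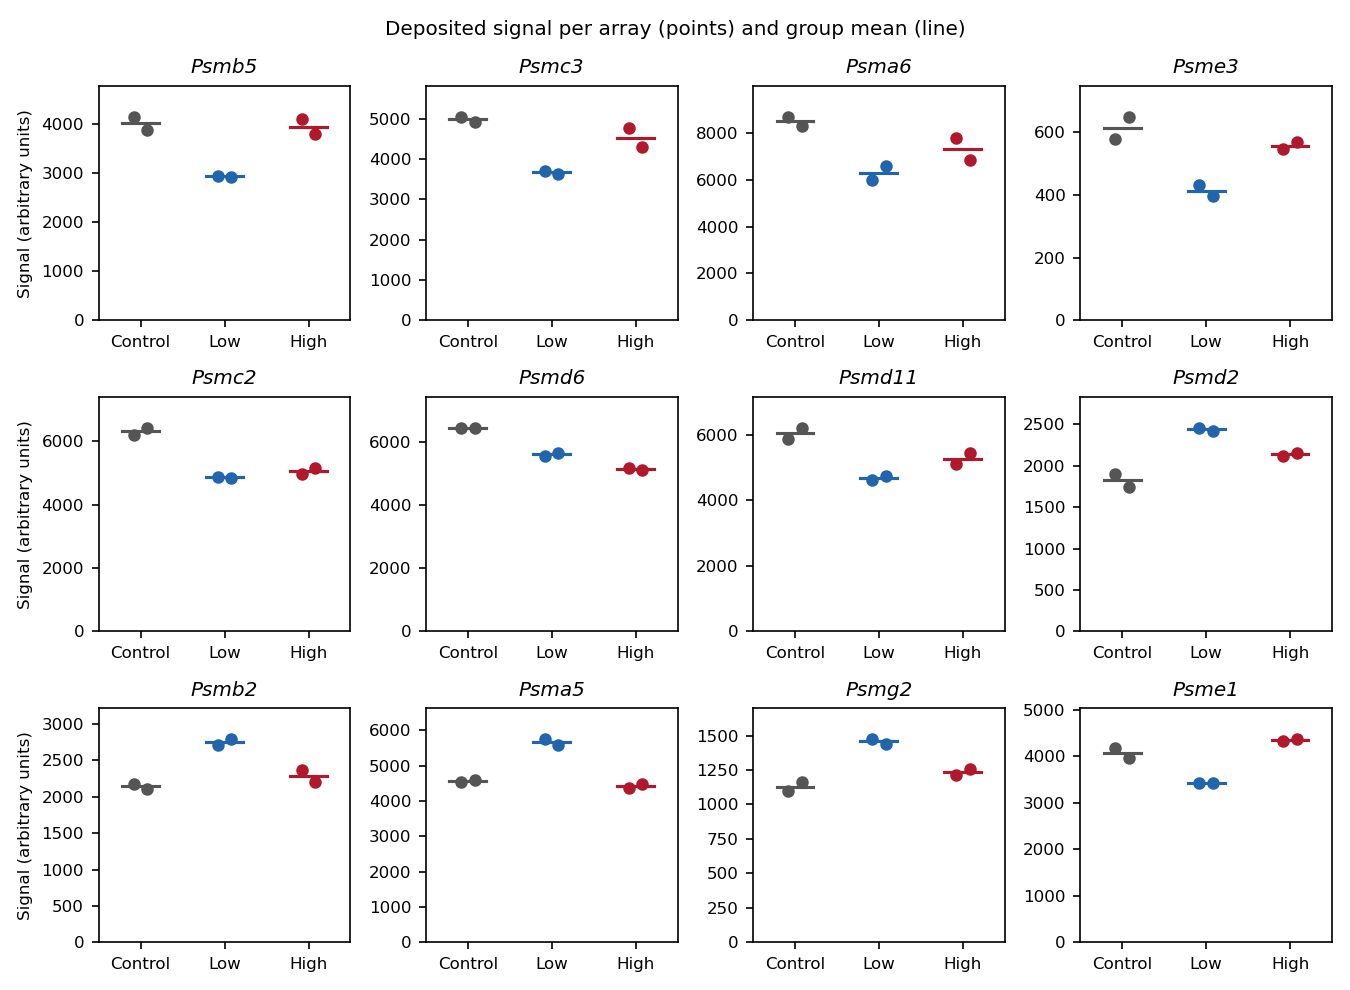
Deposited signal (arbitrary units, axis from 0) of 12 members in each array, with points for arrays and a line at the group mean of 2 arrays. In Psmb5, Psmc3, Psma6 and Psme3 the low line is lowest, in Psmc2, Psmd6 and Psmd11 both lines lie below control, and in Psmd2, Psmb2, Psma5 and Psmg2 the low line is highest.

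The ATPase ring of the cap was lower in 4 of its 6 subunits in the low line and in 1 in the high line. The shares over all tested probe sets were 10.8% and 6.18%. Psmc3 gave 3712 and 3632 in the low line, 4781 and 4286 in the high line, and 5052 and 4917 in control. It was lowest in the low line, with a difference from control of -0.44 ± 0.06 (adjusted p = 0.000895), and the high line exceeded the low line by 0.30 ± 0.06 (adjusted p = 0.00937). Psmc2 gave 4874 and 4838, 4974 and 5146, and 6186 and 6427 in the same order. Both lines lay below control without overlap, with low-line and high-line differences of -0.38 ± 0.05 (adjusted p = 0.000689) and -0.32 ± 0.05 (adjusted p = 0.0031), while the gap between the lines was 0.06 ± 0.05 (95% interval -0.05 to 0.17). Its second probe set was not called in either line (-0.07 and 0.10). Psmc1 (-0.25) and Psmc5 (-0.20) were also lower in the low line. Psmc4 and Psmc6 were called in no comparison.

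The other base subunits moved in both directions in the low line. Psmd4, a receptor for ubiquitin chains, gave 1600.4 and 1096 in the low line, 2062 and 1705 in the high line, and 1820.0 and 1874 in control. The 2 low-line arrays were far apart, and the difference of -0.47 ± 0.15 was just past the threshold (adjusted p = 0.0469), as was that between the lines (0.50 ± 0.15, adjusted p = 0.0483). Its second probe set was lower in the low line as well, at -0.58. Without the second low-line array the low-line difference of Psmd4 was -0.20 and that between the lines 0.23, neither called. Psmd2, a scaffold subunit that docks ubiquitin shuttles, was higher in both lines, with 2462 and 2426 in the low line, 2121 and 2152 in the high line, and 1905 and 1744 in control. The order was low line, high line, control without overlap, and the differences from control were 0.42 ± 0.06 (adjusted p = 0.00123) and 0.23 ± 0.06 (adjusted p = 0.0385). With 1 array left out, the high-line difference ranged from 0.16 to 0.29. The mean of the gene's probe sets, which includes a probe set too dim to be tested, lay below control in both lines. Psmd1, the scaffold subunit paired with Psmd2, was lower in the low line (-0.25 ± 0.06, adjusted p = 0.0111).

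In the lid, which removes ubiquitin before degradation, 5 of 8 genes were lower and 1 was higher in the low line, and 2 were lower in the high line. The shares over all tested probe sets were 10.8%, 13.5% and 6.18% in that order. Psmd6 gave 5553 and 5663 in the low line, 5164 and 5126 in the high line, and 6455 and 6448 in control. It was lower in the high line (-0.33 ± 0.05, adjusted p = 0.00195), the largest called fall among the members in that comparison, and lower in the low line (-0.20 ± 0.05, adjusted p = 0.0125). Its second probe set showed neither fall (-0.01 and -0.03). Psmd11 was lower in both lines as well, with differences of -0.37 in the low line, where its second probe set gave -0.39, and -0.20 in the high line. Psmd7, the partner of the deubiquitinase Psmd14, was lower in the low line (-0.32) and not called in the high line, and the lines differed by 0.29 ± 0.06 (adjusted p = 0.0133). Psmd12 (-0.19) and Psmd13 (-0.31) were lower and Psmd8 (0.27) higher in the low line. Psmd14 itself was called in no comparison, with 2991 and 2960.3, 2965 and 2832, and 2925 and 2844.

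The dedicated chaperones of cap assembly, Psmd5, Psmd9 and Psmd10, gave 0 calls by limma in any comparison (0 also at an unadjusted p below 0.05). Their differences from control lay between 0.06 and 0.30 in the high line and between 0.02 and 0.19 in the low line.

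Of the activators, which open the barrel without the cap, 2 of 3 were lower in the low line and none was called in the high line by limma (0 also at an unadjusted p below 0.05). Over all tested probe sets 10.8% were lower in the low line, and 14.4% were called in the high line. Psme3, the nuclear form, gave 429.6 and 396 in the low line, 544 and 567 in the high line, and 578 and 648 in control. Its low-line fall was the largest of any member, -0.55 ± 0.10 (1.47-fold lower, adjusted p = 0.00295), with a gap between the lines of 0.41 ± 0.10 (adjusted p = 0.0163). Its second probe set gave 0.02 in the low line and was not called. Psme1, a subunit of the interferon-inducible activator, gave 3429 and 3422, 4337 and 4379, and 4182 and 3957 in the same order. The low line was below control (-0.25 ± 0.05, adjusted p = 0.00769) and below the high line (high minus low 0.35 ± 0.05, adjusted p = 0.0023). Psme2, its partner, shares its probe set with Psme2b and is given no value. Psme4, which encodes a large nuclear activator, gave 8599.5 and 8475, 7665 and 8100.4, and 8464 and 8257, and was not called.

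Psmf1, an inhibitor of the core in the test tube, gave 249 and 202 in the low line, 217 and 249.6 in the high line, and 219 and 235 in control, with all groups overlapping. Psmg2, a chaperone of alpha-ring assembly, gave 1478 and 1438, 1213 and 1259, and 1096 and 1162. It was higher in the low line than in control (0.36 ± 0.07, adjusted p = 0.00367) and than in the high line (by 0.23, adjusted p = 0.0364), and its second probe set was higher too (0.83). Its partner Psmg1 gave 693 and 736, 834 and 868, and 742 and 784. Psmg3 gave 188 and 188, 227 and 280.4, and 194 and 239. Psmg4 gave 261 and 253, 263 and 188, and 258 and 380.0. The last 3 were called in no comparison. Across all 9 activator and assembly genes limma made 0 calls in the high line, with 1 (Psmg4) at an unadjusted p below 0.05. Psme3ip1, which shares only the name, gave 551 and 558, 599 and 499, and 574 and 464 and was called in no comparison.

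Psmc3ip, whose product works in meiotic recombination, had the largest called difference of the high line. It gave 150.3 and 169 in high-line hearts, 119.7 and 108 in low-line hearts, and 91.4 and 105 in control, a rise of 0.62 ± 0.18 (adjusted p = 0.043). Its second probe set gave -0.26. Without Psmc3ip and Psme3ip1, the high line had 2 members higher and 7 lower of 45.

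Leaving out 1 array at a time changed many of these calls but no direction. Of the 49 called differences, 15 were called in all 6 such fits. In the low line these were Psma5, Psma6, Psmb2, Psmb5, Psmc2, Psmc3, Psmd2, Psmd11, Psme3 and Psmg2, in the high line Psmc2 and Psmd6, and between the lines Psma5, Psmb5 and Psme1. In none of the 6 fits were Psmc3ip and Psmd2 called in the high line, or Psmb3, Psmb8 and Psmc5 between the lines.

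**Figure D3:**
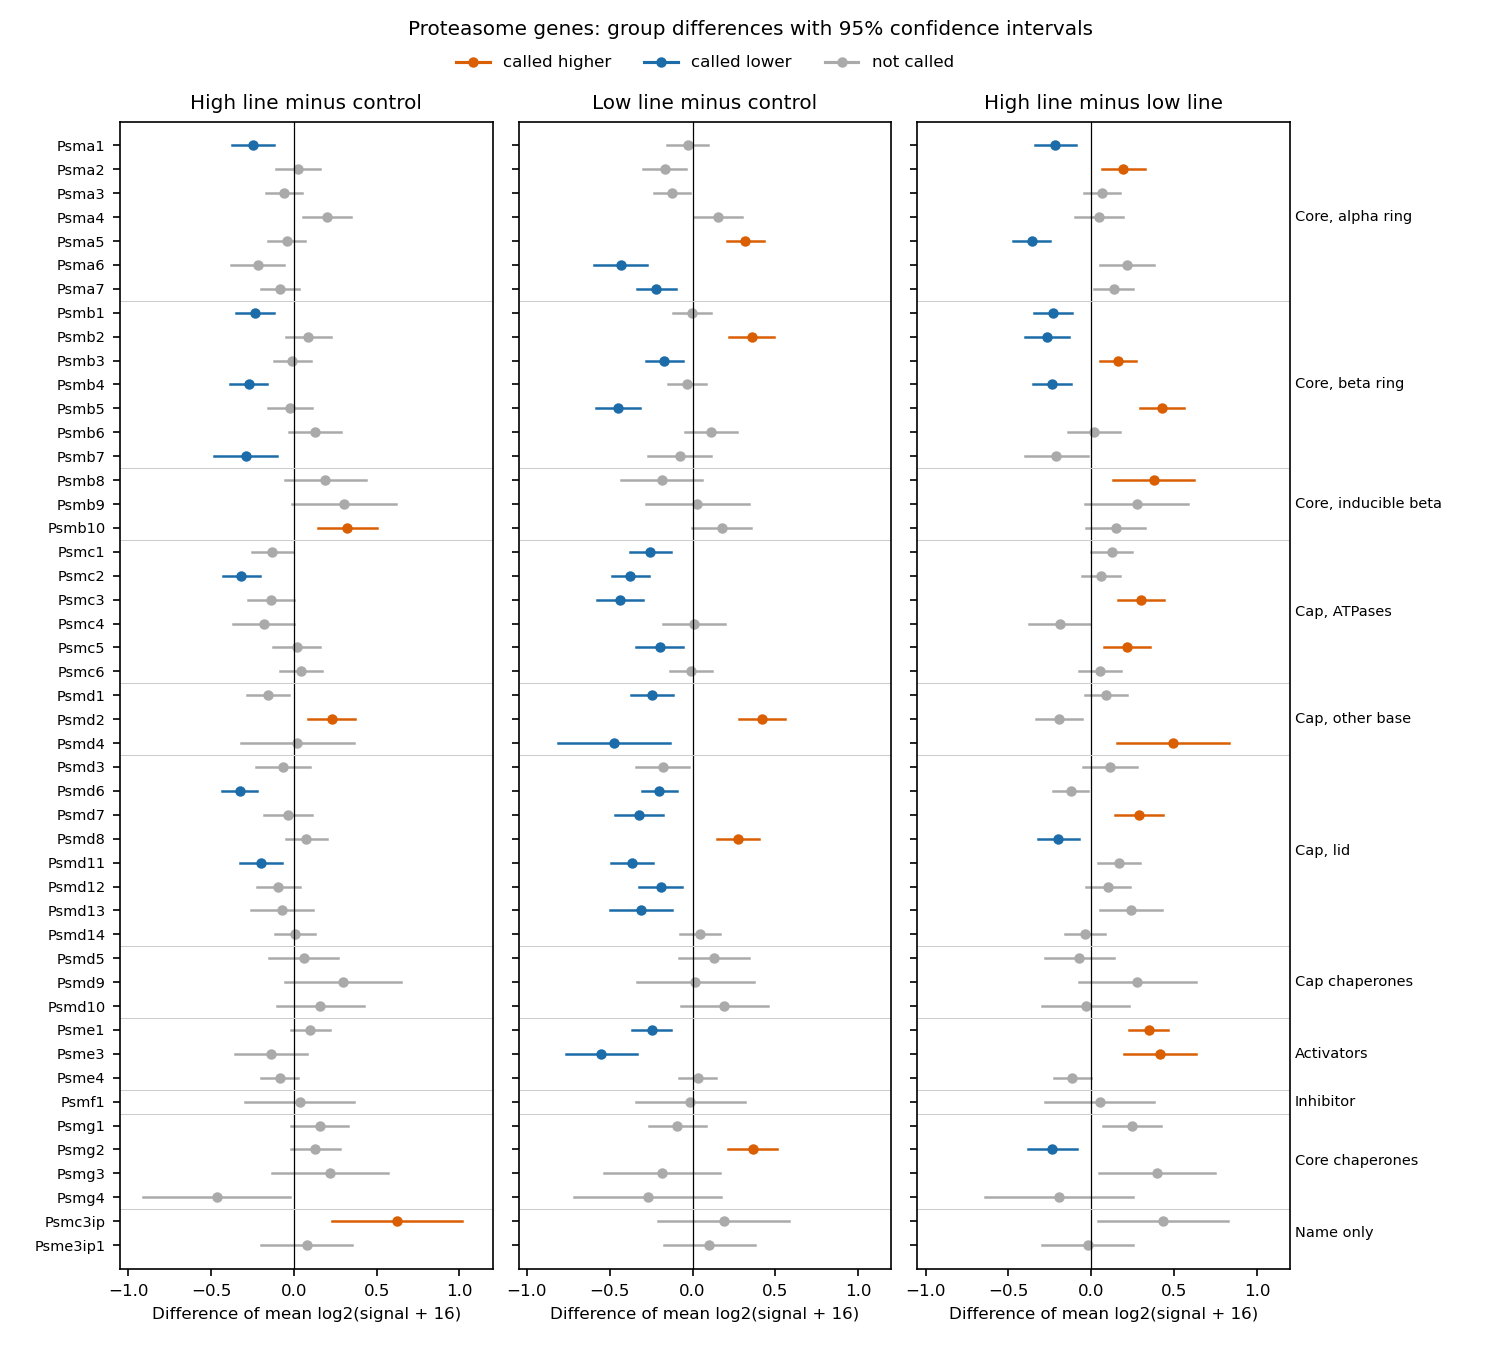
Difference of mean log2(signal + 16) for the 47 tested members in 3 comparisons, ordered by role, with 95% confidence intervals. Orange marks genes called higher and blue genes called lower. In the middle panel 17 are blue and 5 orange, most of the blue ones cap subunits.

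A direct comparison tested how the lines differ. The high line was higher than the low line for 10 of 47 members (21.3%) and lower for 7 (14.9%), beside 9.69% and 8.87% of all tested probe sets (18.6% in either direction) and 17.2% and 18.2% of the equally bright ones. Both high-line arrays lay above both low-line arrays for 27 members, beside 30% of all tested probe sets, and below for 11, beside 29.2%. The largest were Psmd4 (0.50), Psmb5 (0.43), Psme3 (0.41) and Psmb8 (0.38) higher and Psma5 (-0.36) lower in the high line. The Psmd4 difference was 0.23 without the second low-line array and was called in 2 of 6 fits with 1 array left out, and the second probe set of Psme3 gave -0.30. The core genes held 4 of the higher and 5 of the lower calls, and the cap genes 4 and 1. The split depended on scaling, with 9 higher and 10 lower after quantile normalization, 8 and 10 after cyclic loess and 5 and 6 after median centring. The split of the high line against control was 3 higher and 7 lower, and 0 and 7 after median centring. Altogether 30 members were called in at least 1 comparison, and no member was called in opposite directions in the 2 lines against control. For 12 members the difference from control was called in the line with less FASN and not in the line with more, and the difference between the lines was itself called. Of these, 8 were lower in the low line (Psmb3, Psmb5, Psmc3, Psmc5, Psmd4, Psmd7, Psme1 and Psme3) and 4 were higher (Psma5, Psmb2, Psmd8 and Psmg2). These counts, like that of the 30, were not made over all tested probe sets and so mark no trait of the members. Among the 12, the second probe sets of Psma5 (0.41) and Psmg2 (0.35) were called higher in the high line too. That of Psmb3 was called higher in the low line (0.23), opposite to its brightest.

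Several genes were measured by more than 1 probe set, which tests the same arrays with other probes. Of 21 members with at least 2 tested probe sets, the brightest and the next agreed in sign for 16 in the low line, 12 in the high line and 15 between the lines. In the low line 6 members were called the same way by both (Psma5, Psma6, Psma7, Psmd4, Psmd11 and Psmg2), 4 by the brightest alone (Psmc2, Psmd6, Psmd13 and Psme3), 1 in opposite directions (Psmb3), and 10 by neither. Of the second probe sets of these 21 members, 4 were lower and 3 higher in the low line, with a median of 0.0198. In the high line no member was called by both, 7 were called by the brightest alone (Psma1, Psmb1, Psmb4, Psmc2, Psmc3ip, Psmd6 and Psmd11), and 3 by the second alone (Psma5 at 0.41, Psmc6 at -0.36 and Psmg2 at 0.35). The high-line calls of these 7 members therefore each rest on a single probe set.

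**Figure D4:**
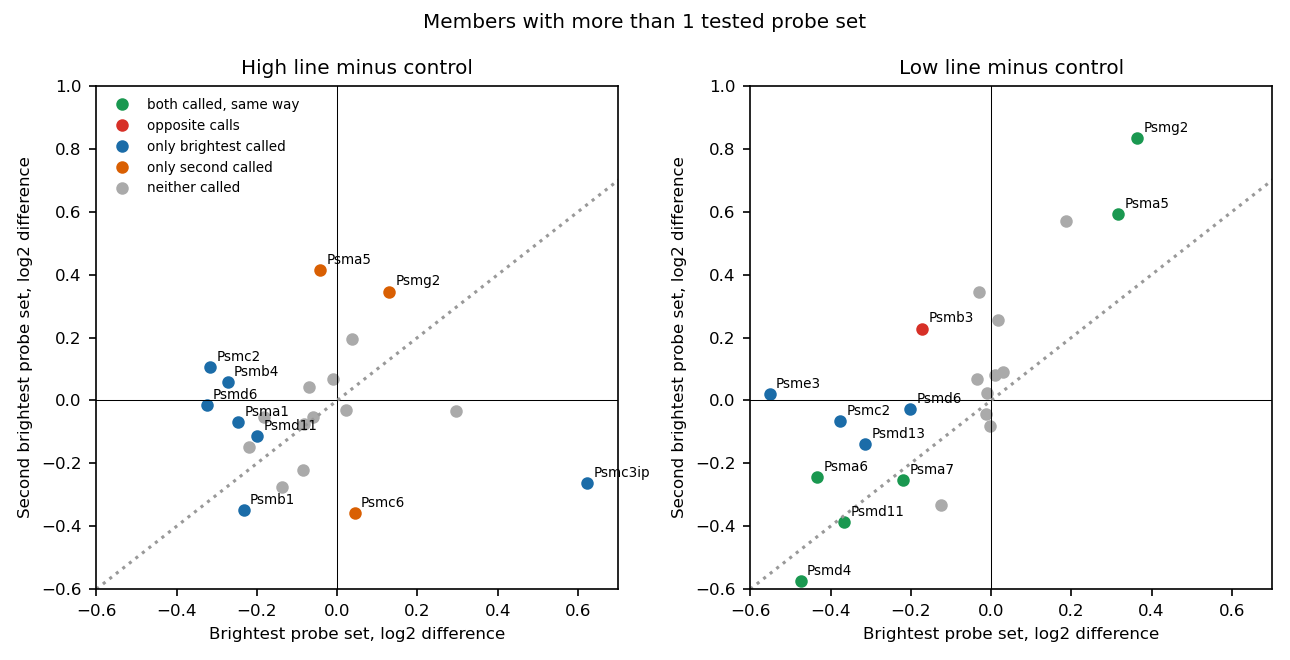
Log2 difference from control of the brightest (horizontal) and the second brightest (vertical) probe set of the 21 members with at least 2 tested, for the high line (left) and low line (right), coloured by which was called. The dotted line marks equal differences. Green points, called the same way by both, occur only in the right panel, where there are 6.

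Regulators of proteasome genes were examined from a separate list. Of 8 tested, 5 were lower in the high line and 3 lower and 1 higher in the low line. The shares over all tested probe sets were 6.18%, 10.8% and 13.5% in that order. The list was chosen with earlier results of these data known, so the count marks no trait of the regulators. Nfe2l1 gave 2107 and 2146 in the low line, 2468 and 2231 in the high line, and 2278 and 1963 in control, and was not called (0.01 and 0.15). Nfe2l2, the master factor of the antioxidant response, gave 2563 and 2649, 2114 and 2075, and 2724 and 2868, and was lower in the high line (-0.41, adjusted p = 0.00143). The small Maf genes, whose products pair with both factors, were lower: Maff by 1.01 in the high and 1.24 in the low line, Mafk by 0.55 and 0.81, and Mafg by 0.49 in the high line. Bach1, a repressor at the same elements, was lower by 0.32 and 0.38. Ngly1, the enzyme that processes the Nfe2l1 product, was higher in the low line (0.32).

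Proteins that work with the proteasome were measured for 15 genes. Of these, 2 were higher and 3 lower in low-line hearts, and 1 was lower in high-line hearts. The shares over all tested probe sets were 13.5%, 10.8% and 6.18% in that order. Usp14, a deubiquitinase of the cap, gave 1219 and 1264 in the low line, 687 and 654 in the high line, and 770.1 and 707 in control. Its rise in the low line (0.74, adjusted p = 0.000184) was larger than that of the brightest probe set of any member. Some dimmer probe sets of members rose more, among them the second of Psmg2 (0.83) and a dim one of Psme4. Pomp, the maturation factor of the core, was lower in the low line (-0.28, adjusted p = 0.00327), and Akirin2, which brings the proteasome into the nucleus, was lower in both (-0.19 and -0.20). Uchl5, the other deubiquitinase of the cap, was not called. Between the lines 3 of the 15 were higher in the high line and 2 lower, beside 9.69% and 8.87% of all tested probe sets. Of 10 genes of the p97 segregase, which extracts ubiquitinated proteins, limma called 0 in either line against control (3 in the high and 2 in the low line at an unadjusted p below 0.05), and Vcp (0.23) and Ufd1 (0.33) were higher in high-line than in low-line hearts. Of the ubiquitin and activating-enzyme genes 2 were tested and 0 called by limma (1 and 0 for the respective lines, high then low, at an unadjusted p below 0.05).

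Class I antigen presentation, which uses peptides made by the proteasome, was measured for 12 genes. Low-line hearts had Irf1 (0.60), Pdia3 (0.50) and Calr (0.21) higher and Tap2 (-0.98) and H2-K1 (-0.21) lower, and high-line hearts had Irf1 (0.29) higher. Tap2, a subunit of the peptide transporter, gave 199 and 183 in the low line, 398 and 394 in the high line, and 362 and 427 in control. Between the lines 3 of these genes were higher and 3 lower in the high line, beside 9.69% and 8.87% of all tested probe sets.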

How the data were processed

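Whole-heart RNA of 6 samples in 3 groups of 2, taken from the titles, was measured on arrays. The authors deposited 1 table of linear intensity (signal) for each probe set on each array, made with GCOS per the submitters' processing notes; GCOS version, summary method and scaling target: not given in the sources used here. After trimming 2% at each end every column averaged 300.002, so the deposited scaling was kept. Of 45101 probe sets, 64 were controls, 34945 had 1 gene symbol in the annotation, 932 several and 9160 were not listed; only single-symbol probe sets are named. Psme2 shares its only probe set with Psme2b.

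Values were analysed as log2(signal + 16), which understates changes of dim genes, in R 4.3.3 with limma 3.58.1. The brighter 22519 of the 45037 non-control probe sets (mean no lower than their median) were kept. All arrays entered a single lmFit with 3 group means, followed by eBayes with trend = TRUE, which left 3 residual and 6.43 prior degrees of freedom, and p-values were adjusted by Benjamini-Hochberg over all kept probe sets, called below 0.05, two-sided. "Equally bright" probe sets lie between the members' quartiles of mean log2 signal (9.61 to 11.92). Members outside that range have no match among them. With 2 arrays per group, their number limits the precision; p-values do not cover differences between animals if arrays share a heart. Samples with the same replicate number did not deviate together (correlations of deviations 0.04, 0.03 and 0.0004), so the numbers were not used as a block.

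The members and all gene lists were chosen with earlier results of these data known, and lists are described by counts, without a set test. Signals are given for the 5 called members with the largest absolute difference in each comparison, the catalytic, inducible, activator and assembly genes, and a few further members chosen after their values were seen. Recomputations used other scalings, pseudocounts, filters, variance models, probe set rules, the 4 arrays compared, a replicate block and each array left out. Figures used matplotlib 3.10.9 (Python 3.11.15).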

Additional observations from a re-analysis of the deposited data

Results flagged for a closer look

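The difference between the lines was itself called, by limma at an adjusted p below 0.05, for 17 members, which is why they are listed here. The signal was higher in the high line for Psmd4 (0.50 on the log2 scale), Psmb5 (0.43), Psme3 (0.41), Psmb8 (0.38), Psme1 (0.35), Psmc3 (0.30), Psmd7 (0.29), Psmc5 (0.22), Psma2 (0.19) and Psmb3 (0.16). It was lower in the high line for Psma5 (-0.36), Psmb2 (-0.27), Psmb4 (-0.24), Psmg2 (-0.23), Psmb1 (-0.23), Psma1 (-0.22) and Psmd8 (-0.20). In all 17 both arrays of one line lay above both arrays of the other. This largely follows from choosing them by a call on the same arrays and adds no evidence. Over all tested probe sets, both high-line arrays lay above both low-line arrays in 30% and below in 29.2%.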

How the results depend on the processing

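The number of called members was 10, 22 and 17 in the comparisons high line with control, low line with control and high with low line, the order kept here. Calls relied on letting the variance depend on brightness: without that trend limma called 1, 8 and 0 (18 between the lines at an unadjusted p below 0.05). Testing all probe sets called 5, 18 and 9, and testing those above the 25th percentile 6, 19 and 10. Using only the 4 arrays compared called 5, 25 and 10, and median centring 7, 19 and 11. Averaging all probe sets of a gene called 3, 12 and 10, the second brightest probe set 5, 15 and 12 of 41 members, of which 20 keep their only probe set, so that 3, 7 and 5 calls came from the 21 with a second, and a minimum log2 difference of 0.5 kept 1, 1 and 0. Leaving out 1 array gave 3 to 9, 10 to 25 and 3 to 16 calls. Quantile normalization, cyclic loess, pseudocounts of 1 and 64, a robust variance model and 1 probe set per gene kept every count within 1.5 times. Same-numbered arrays did not pair, and the replicate block gave 9, 23 and 17 calls.

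Class medians (log2) also moved; those with 1 array left out, with the second brightest probe set or with 1 probe set per gene, and all class counts, were added after seeing the data. In the high line the core median was 0.0178 after quantile normalization and 0.0413 with the second brightest probe set. In the low line, averaging and the second probe set gave core medians of 0.0287 and 0.0490 and cap medians of -0.11 and -0.0462, quantile normalization and cyclic loess gave cap medians of -0.14 and -0.16, and the second probe set an activator and assembly median of 0.0199. Between the lines cyclic loess gave medians of -0.00146 (core) and 0.0579 (cap), averaging 0.0302 (cap) and 0.11 (activator and assembly), and the second probe set 0.0507 and -0.0210 for the same classes. With 1 array left out, the core, cap and activator and assembly medians ranged from -0.0337 to 0.00221, -0.0477 to -0.000315 and 0.0592 to 0.11 in the high line, from -0.0635 to 0.00247, -0.20 to -0.16 and -0.15 to -0.0415 in the low line, and from 0.0364 to 0.12, 0.0834 to 0.12 and -0.0115 to 0.19 between the lines.

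Single genes reversed with another probe set rule, with at least 1 of both values called, in these cases. The second probe set gave Psma5 0.41, Psmb4 0.0574, Psmc2 0.10, Psmc3ip -0.26 and Psmc6 -0.36 in the high line, Psmb3 0.23 and Psme3 0.0199 in the low line, and Psmb3 -0.16, Psme3 -0.30 and Psmc6 -0.38 between the lines. Averaging gave Psmd2 -0.17 in the high line, and Psma1 0.45, Psmb3 0.0287, Psmd13 0.0764 and Psmd2 -0.14 in the low line. The cause was not tested; the average for Psmd2 includes a probe set too dim to be tested. No detection calls were used, so signal over background could be judged from intensity alone.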

Other observations

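Of the 4 dimmer tested probe sets of Psme4, 3 were higher in the low line, although the brightest was not called. The fourth, second in brightness, was not called in the low line either (0.0918), with 5985 and 5389.6 beside 5916 and 4799 in control. The called ones gave 1896 and 1778 in the low line, 1403 and 1272 in the high line, and 1314 and 1187 in control for the first, 170 and 178, 117 and 133, and 92.7 and 110 for the second, and 179 and 148, 50.3 and 34.5, and 56.0 and 15.0 for the third, in the same order of groups. The low-line arrays lay above all other arrays in each. The log2 differences from control were 0.55, 0.70 and 1.92, all called. These probe sets were named after their values were seen.

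Of the 5 genes with an ETS motif in the searched promoter window, Psmc1, Psmc2, Psmd6 and Psmd12 were lower in the low line and Psme4 was not called. Beside this, 36.2% of all tested members and 10.8% of all tested probe sets were lower. The lower genes named here are all cap genes, and 52.4% of cap genes were lower there, so motif and class cannot be told apart. The second probe sets of Psmc2 and Psmd6 were not called there (-0.07 and -0.03). Of the 5 genes with the antioxidant core, Psmb5 and Psmd12 were lower in the low line, and Psmb6, Psmc6 and Psmd9 were not called. These counts carry no test.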
